A study of Mus musculus with 6 samples.

Results

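The MITF-TFE and OTX factors are 6 transcription factor genes that are read together in the embryonic retinal pigment epithelium (RPE), a single sheet of pigmented cells that backs the neural retina. They are Mitf, Tfec, Tfeb and Tfe3 of the MITF-TFE family and Otx1 and Otx2 of the OTX family. Each probe set that the platform annotation assigns to exactly 1 of these genes was taken, which gave 7 probe sets for 6 genes, of 45037 non-control probe sets and 18193 genes with such a probe set. Mitf had 2 probe sets and each other gene had 1. All 7 had a mean log2 value above 5, the level below which a probe set was left untested, so the 7 stand among the 23591 tested probe sets. The genes were chosen by family with earlier results of these data known, although no measured value entered the rule.

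The arrays compare RPE-labelled tissue of albino mouse embryos with that of pigmented control embryos at embryonic day 13.5, with 3 arrays a genotype. Each array held RNA pooled from 3 to 4 littermates, and the labels call the 3 pools of a genotype biological replicates. The labels name neither the albino allele nor the strains, and no transgene or agent is given for either group. The dissection notes describe removal of cornea, lens, neural retina and tissue around the eye, whereas the sample descriptions speak of the whole eye region. Values are log2 expression values made by the authors with RMA, a method that corrects background, equalises the distributions of the arrays and summarises the probes of a probe set.

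MITF is the master regulator of pigment cells. It and its relatives TFEC, TFEB and TFE3 are basic helix-loop-helix leucine zipper proteins that bind E-box sequences as homodimers or as heterodimers with each other. In the embryonic eye Mitf commits the outer layer of the optic cup to RPE and, with OTX2, switches on the melanin genes, while TFEB and TFE3 are best known for driving lysosome and autophagy genes when they are released from mTORC1-dependent retention in the cytoplasm. OTX1 and OTX2 are homeodomain proteins of the bicoid type and are required in the mouse for RPE identity.

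Most sequences below are shown because they hold the kind of site through which these factors act on the genes described later. The cAMP response element, shown in a Mitf window, is not such a site. All come from RefSeq promoter windows of build GRCm38.p6, which reach from 250 bases before to 50 bases after an annotated start, and capitals mark the motif searched. The letters searched on both strands were CATGTG (the core of the M-box of melanin genes), CACGTG (the E-box of lysosome genes), TAATCC (the bicoid-type OTX site) and TGACGTCA (a cAMP response element). No match to 1 of these motifs is at the same time a match to another. A match is a string of letters in a window, not a measured binding site. Among all 32851 windows, 14.2% held CATGTG, 7.15% CACGTG, 7.06% TAATCC and 1.79% TGACGTCA. The M-box core stands in the windows of Tyr, Tyrp1 and Dct:
Tyr (chr7:87493516-87493545, minus strand): gaaaaagttagtCATGTGctttgcagaaga
Tyrp1 (chr4:80834155-80834184, plus strand): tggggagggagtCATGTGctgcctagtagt
Dct (chr14:118052379-118052408, minus strand): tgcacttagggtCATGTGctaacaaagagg
The OTX-type letters stand in the windows of Dct, Best1 and Crx, in the last on the opposite strand, where they read GGATTA:
Dct (chr14:118052348-118052377, minus strand): tttctctggttaTAATCCccttaatgatgg
Best1 (chr19:10001843-10001872, minus strand): gtccagctgtgtTAATCCacctcttggttt
Crx (chr7:15880032-15880061, minus strand): gtgggggtggtgGGATTAagcagacggtgc
The lysosome E-box stands at 4 places in the window of Lamp1, of which 1 is given, and at 2 in that of Mcoln1:
Lamp1 (chr8:13159104-13159133, plus strand): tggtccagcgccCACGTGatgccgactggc
Mcoln1 (chr8:3500436-3500465, plus strand): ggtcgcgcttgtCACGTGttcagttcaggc
Of the members themselves, Mitf had 3 windows, Tfeb 3, Tfe3 2, Tfec 1 and Otx2 4, and Otx1 was not in the table. In Mitf the middle window holds the OTX-type letters and the most downstream window holds the cAMP response element:
Mitf, middle window (chr6:97929686-97929715, plus strand): gccataggtactGGATTAagcaggtctgct
Mitf, downstream window (chr6:97991618-97991649, plus strand): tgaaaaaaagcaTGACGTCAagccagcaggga
An OTX-type match also lies in 1 of the Otx2 windows:
Otx2 (chr14:48665303-48665332, minus strand): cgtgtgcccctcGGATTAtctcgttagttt
Another Otx2 window holds the M-box core, on the opposite strand. None of the 4 motifs was found in the windows of Tfec, Tfeb or Tfe3.

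The tissue was checked against markers. The RPE list is not separate from the genes described below, since it holds Mitf and Otx2 themselves and also Dct, Tyr, Pmel, Trpm1, Ttr and Best1. Of 18 RPE markers, 14 were above the filter, and their mean log2 value lay between 9.15 and 9.36 on the albino arrays and between 9.28 and 9.53 on the pigmented arrays. Rpe65, Lrat and Rgr, which belong to the visual cycle of mature RPE, were below the filter, as was Slc16a3. Of the 14, 13 were lower and 1, Serpinf1 (0.21), was higher in albino pools (median -0.095). Of all 12098 tested genes 35.2% were lower. The genotypes did not overlap at 4 of the 14, all lower in albino pools. Over all 12098 genes 409 were lower and 964 higher without overlap. The 4 were Mitf, Ttr, Kcnj13 (-0.24), an RPE potassium channel gene, and Trpm3 (-0.32), a cation channel gene. The 4 other tested probe sets of Trpm3 gave -0.26 to 0.047. Markers of other tissues were also read. The 14 tested skeletal muscle markers were all higher in albino pools, with array means of 8.27 to 8.99 against 6.84 to 7.76, and the means of 11 markers of periocular mesenchyme ran from 10.00 to 10.26 over the arrays. Albino replicate 3 stood apart on lens markers, with a mean of 5.82 over 7 tested markers, against 7.58 to 7.85 on the other 5 arrays. Cryba1, a lens crystallin gene, read 3.31 on that array and 7.88 to 8.53 on the others, and Cryaa, another crystallin gene, 4.48 against 8.03 to 8.71. Because the pools are bulk tissue, fewer RPE cells and less transcript per RPE cell cannot be told apart in any value below, and the part that the other tissues have in the members' values was not tested. The replicate 1 arrays of both genotypes stood apart from the other 4. Of the tested probe sets, 43.5% were higher on both replicate 1 arrays than on every other array and 15.7% were lower. For the members and the gene lists described below, values without them are also given. The marker counts were read on all arrays only.

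Over all tested probe sets the genotype comparison gave no call after adjustment, and this sets the background for the members. With limma, 0 of 23591 probe sets (0%) reached an adjusted p under 0.05, and 1104 (4.68%) had an unadjusted p under 0.05. In albino pools 759 of the 1104 were higher and 345 were lower, against 486 and 1057 after median centring of the arrays. The count of 1104 fell to 610 without albino replicate 2 and to 567 without pigmented replicate 2. With the replicate number as a block, 0 passed after adjustment and 4243 (18%) had an unadjusted p under 0.05. Of the 7 member probe sets, 0 passed in either fit, and 0 had an unadjusted p under 0.05 in either fit. Their differences between albino and pigmented pools lay between -0.10 and 0.11 on the log2 scale, where the median over all tested probe sets was 0.047.

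Mitf, the master gene of the pigment cell lineage, was read by a probe set with one of the steadiest signals on the arrays. The brighter Mitf probe set, 1455214_at, read 10.07, 10.11 and 10.15 in the albino pools and 10.20, 10.21 and 10.21 in the pigmented pools. All 3 albino arrays were lower than all 3 pigmented arrays, and the whole range over the 6 arrays was 0.14. Only 2.19% of tested probe sets had a smaller range. The albino mean was 10.11 ± 0.04 and the pigmented mean 10.21 ± 0.0058 (SD over n = 3 arrays each). The difference was -0.10 (SE 0.081, 95% confidence interval -0.29 to 0.10, limma adjusted p = 0.999), which is a ratio of 0.935 with an interval from 0.817 to 1.07. Arrays of the same number differed by -0.13, -0.10 and -0.06. The genotypes failed to overlap at 1 of the 7 member probe sets. They did so at 10.8% of tested probe sets, albino lower at 3.44% and albino higher at 7.39%. The difference was -0.08 without both replicate 1 arrays. With the replicate block its SE was 0.056 (adjusted p = 0.394). 49.6% of tested probe sets had a larger absolute genotype difference.

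The dimmer Mitf probe set, 1422025_at, behaved differently from the brighter one. It read 6.12, 7.34 and 7.31 in the albino pools and 5.83, 7.46 and 7.14 in the pigmented pools. The replicate 1 array was the low one in both genotypes, by 1.21 in albino and 1.47 in pigmented pools below the mean of the other 2 arrays of its genotype, while the genotypes overlapped throughout. The brighter probe set had replicate 1 shifts of only -0.06 and -0.01. A shift at least as large in size as that of 1422025_at was found at 1.53% of tested probe sets.

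The genotype comparison of 1422025_at was imprecise. The albino mean was 6.92 ± 0.70 and the pigmented mean 6.81 ± 0.86 (SD over n = 3 arrays each), a difference of 0.11 with a 95% confidence interval of -1.10 to 1.32. Its sign turned without albino replicate 2 (-0.10), albino replicate 3 (-0.08) or pigmented replicate 1 (-0.38), and it rose to 0.515 without albino replicate 1, 0.44 without pigmented replicate 2 and 0.28 without pigmented replicate 3. Without both replicate 1 arrays the difference was 0.025. With the replicate block its SE fell from 0.51 to 0.094.

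The Mitf probe sets disagreed on replicate 1 by more than those of most genes with several tested probe sets. The replicate 1 shifts of the 2 probe sets differed by 1.30, and among 5348 genes with at least 2 tested probe sets 8.55% had a gap as large, with a median gap of 0.37. Signs of the genotype difference were mixed between probe sets in 48.4% of those genes, as they were in Mitf. For a gene with more than 2 probe sets the gap ran from the lowest to the highest shift, and any mix of signs counted. Both shares can therefore be higher than among genes with exactly 2, as Mitf has. The arrays carry RNA integrity controls, in which the 3' end of beta actin and Gapdh transcripts is set against the 5' end. For beta actin the log2 gap was 1.04, 0.86 and 0.89 in albino pools, against 1.35, 0.93 and 1.01 in pigmented ones, so replicate 1 had the widest gap of each genotype. For Gapdh it was 0.70, 0.56 and 0.50 in albino pools, against 0.86, 0.55 and 0.68 in pigmented ones, with the same order for replicate 1. The part of RNA integrity in the low reading of 1422025_at was not tested, and which Mitf transcripts each probe set reads was not analysed here.

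**Figure D1:**
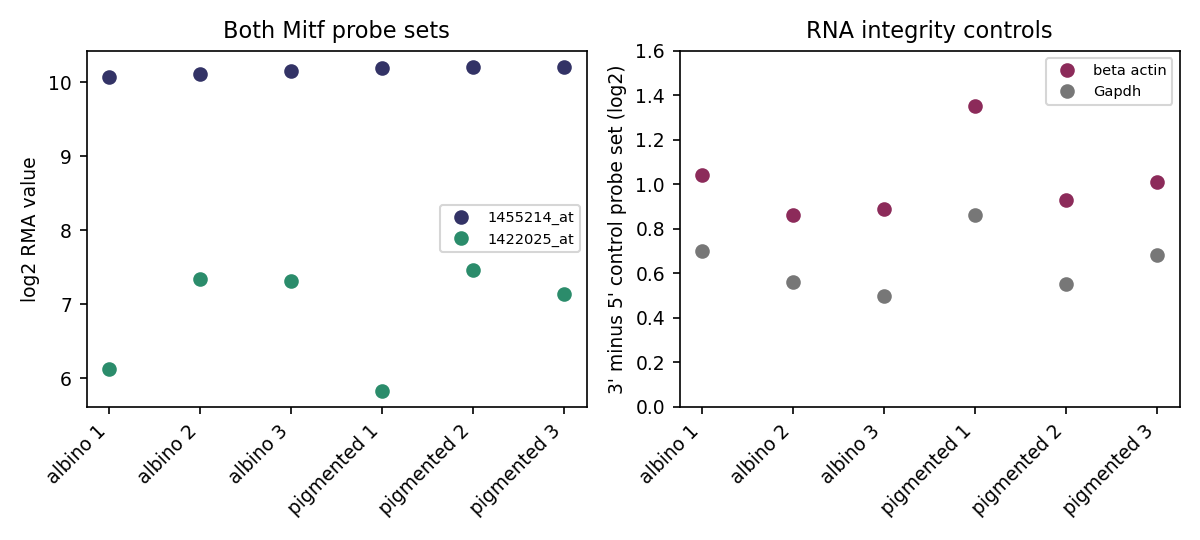
Log2 RMA values of both Mitf probe sets on the 6 arrays (left) and the 3' minus 5' gap of the beta actin and Gapdh control probe sets in log2 units (right), with 1 point per array. The brighter Mitf probe set stays between 10.07 and 10.21, whereas the dimmer one is lowest on both replicate 1 arrays, where the control gaps are widest within each genotype.

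Cells other than RPE also use Mitf, among them melanoblasts, the neural crest cells that will pigment the choroid and skin. Of 7 tested melanoblast markers 5 were lower and 2 higher in albino pools, where 35.2% of all tested genes were lower. Their mean log2 value was 7.18 ± 0.04 over the albino arrays and 7.24 ± 0.0058 over the pigmented arrays (SD, n = 3 each). Sox10, the neural crest factor that activates Mitf in melanoblasts, read 7.73, 7.47 and 7.64 in albino pools, against 7.97, 7.63 and 7.51 in pigmented ones, and the groups overlapped. Kit, the receptor melanoblasts need to survive, read 7.77, 7.51 and 7.52 against 7.71, 7.67 and 7.62, again overlapping. Other markers of the list were apart, in both directions. Erbb3, a neuregulin receptor gene of neural crest cells, read 8.15, 8.12 and 7.75 in albino pools, against 7.69, 7.61 and 7.67 in pigmented ones, higher in albino pools without overlap (difference 0.35, SE 0.13, limma adjusted p = 0.999). Mcoln3, a cation channel gene, was lower without overlap (-0.16, SE 0.082), as was Ednrb, described with the MITF targets. Foxd3 differed by 0.12 (SE 0.14) and Pax3 by -0.23 (SE 0.32). Mc1r was below the filter. The melanoblast share of the Mitf signal was not tested.

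Tfec, the family member with the narrowest use in the body, passed the filter by a small margin, with a mean of 5.53. It is known from macrophages and from RPE, where it acts beside Mitf. It read 5.77, 5.34 and 5.56 in albino pools, against 5.65, 5.46 and 5.39 in pigmented ones, so the genotypes overlapped and replicate 1 was the highest of each. The means were 5.56 ± 0.22 and 5.50 ± 0.13 (SD, n = 3 each), a difference of 0.057 (SE 0.14, 95% confidence interval -0.28 to 0.39, limma adjusted p = 0.999). The sign turned without albino replicate 1 (-0.05) and after median centring (-0.017). Leaving out both replicate 1 arrays gave 0.025. Of 15 tested macrophage and osteoclast markers 13 were higher in albino pools, as were 7713 of all 12098 tested genes. The marker means were 7.05 to 7.18 on the albino arrays, against 6.89 to 7.04 on the pigmented arrays. Tfec ran from 5.34 to 5.77 on the same albino arrays, and the part of macrophages in its level was not tested.

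Tfeb, whose product switches on lysosome genes in starved cells, read 6.04, 5.96 and 6.21 in albino pools, against 6.28, 6.09 and 6.11 in pigmented ones. The ranges overlapped, with the lowest value in albino replicate 2 and the highest in pigmented replicate 1. The means were 6.07 ± 0.13 and 6.16 ± 0.10 (SD, n = 3 each). The difference was -0.09 (SE 0.11, 95% confidence interval -0.35 to 0.17, limma adjusted p = 0.999), and it was -0.16 without albino replicate 3, -0.03 without pigmented replicate 1 and -0.015 without both replicate 1 arrays. Its sign held in all 16 alternatives in which it was refitted.

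Tfe3, an X-linked gene with a role close to that of Tfeb, varied little. It read 7.59, 7.50 and 7.55 in albino pools, against 7.65, 7.52 and 7.43 in pigmented ones, and the albino values lay inside the pigmented range. The means were 7.55 ± 0.05 and 7.53 ± 0.11 (SD, n = 3 each). The difference of 0.013 (SE 0.096) had a 95% confidence interval of -0.22 to 0.24, equal to ratios from 0.861 to 1.18. 91.8% of tested probe sets had a larger absolute genotype difference. A value this near 0 has no settled sign. It turned without albino replicate 1 (-0.0083), without pigmented replicate 3 (-0.038), after median centring (-0.06) and after cyclic loess (-0.048). Leaving out both replicate 1 arrays gave 0.05.

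Otx2, which is needed for RPE identity and works with MITF on melanin gene promoters, read 9.72, 9.82 and 9.86 in albino pools, against 9.59, 10.09 and 9.99 in pigmented ones. Pigmented replicates 2 and 3 were above all albino arrays and pigmented replicate 1 was below them, so the genotypes overlapped. The means were 9.80 ± 0.07 and 9.89 ± 0.26 (SD, n = 3 each), a difference of -0.09 (SE 0.15, 95% confidence interval -0.44 to 0.26, limma adjusted p = 0.999). Arrays of the same number differed by 0.13, -0.27 and -0.13. Without both replicate 1 arrays the difference was -0.20 (SE 0.066, limma adjusted p = 0.363). Without pigmented replicate 1 alone it was -0.24, and without pigmented replicate 2 it was 0.01.

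Otx1, which shares the OTX homeodomain and is also used at the ciliary margin, had a pattern much like that of Otx2 in pigmented pools. It read 8.55, 8.47 and 8.41 in albino pools, against 8.28, 8.73 and 8.57 in pigmented ones, with pigmented replicate 1 the lowest of all and pigmented replicate 2 the highest. The means were 8.48 ± 0.07 and 8.53 ± 0.23 (SD, n = 3 each). The difference was -0.05 (SE 0.13, 95% confidence interval -0.37 to 0.27, limma adjusted p = 0.999). Without both replicate 1 arrays it was -0.21 (SE 0.079, limma adjusted p = 0.384), without pigmented replicate 1 it was -0.17, and without pigmented replicate 2 the sign turned (0.052). In both OTX genes the SD was wider over the pigmented than over the albino pools, a difference that was not tested. The pool that gave the highest Otx1 and Otx2 values, pigmented replicate 2, also had the lowest mean of Y-linked probe sets (2.32, against 5.98 to 7.99 on the other 5 arrays). With that mean as a covariate the differences were 0.092 for Otx2 and 0.13 for Otx1, and the part of embryo sex was not tested further. Neural retina cells could carry Otx2 transcript into the pools. Their markers had array means of 7.01 to 7.54 in albino and 7.28 to 7.77 in pigmented pools. Replicate 1 was the lowest of each genotype. Of 9 tested markers 7 were lower and 2 higher in albino pools (median -0.40), where 35.2% of all tested genes were lower. With limma 0 had an unadjusted p under 0.05, and 7 had with the replicate block, as did 2043 of all 12098 genes. Of 9 tested ciliary margin markers, a list that holds Otx1 itself, 6 were lower and 3 higher in albino pools (median -0.05). Their array means were 8.09 to 8.16 in albino and 8.14 to 8.20 in pigmented pools. With limma 2 had an unadjusted p under 0.05 (5 with the block), as did 579 of all 12098 genes (2043 with the block). The part of neural retina or ciliary margin in the OTX values was not tested. Crx, an OTX-family gene of photoreceptor precursors, was below the filter on every array.

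**Figure D2:**
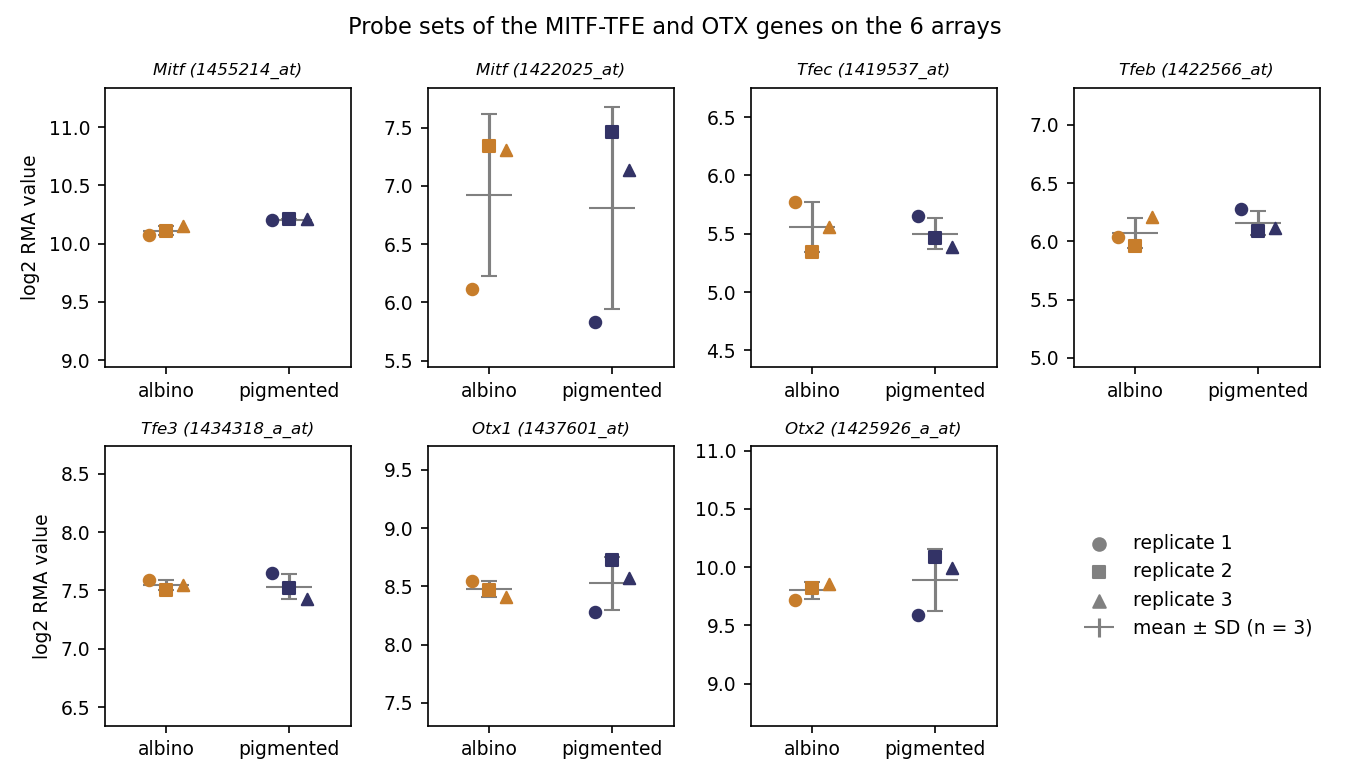
Log2 RMA values of the 7 probe sets by genotype, each panel spanning the same height in log2 units, with symbols for the replicate number and grey bars for the mean and SD of 3 arrays. The genotypes overlap in each panel except the one of Mitf 1455214_at, and the replicate 1 arrays of Mitf 1422025_at lie more than 1 log2 unit below the others.

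**Figure D3:**
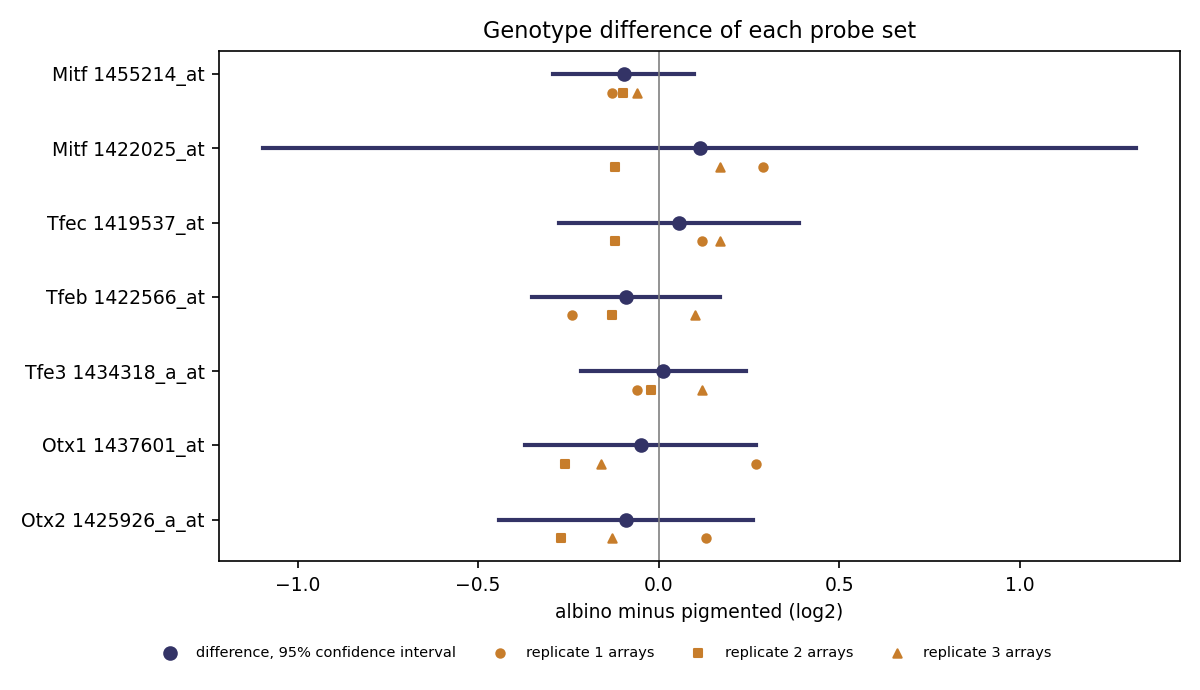
Albino minus pigmented difference in log2 units for each probe set with the 95% confidence interval of the limma estimate (blue) and the differences between arrays of the same replicate number (orange symbols). Each interval includes 0, and the interval of Mitf 1422025_at (-1.10 to 1.32) is the widest.

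The 5 genes whose values ran most like each member's across the 6 arrays are given as a description. The 6 arrays share the replicate 1 structure and 1 normalization, and with 12098 genes to choose from high coefficients are easily found. For Mitf 1455214_at they were Sftpb, Foxf2, Gm8096, C86187 and Lce1i (Pearson r 0.975 to 0.986). For Tfec they were Erf, Chic1, Ttc12, Scly and Stx3 (0.990 to 0.999), and for Tfeb Brk1, Mosmo, Zdhhc18, Ccdc22 and Birc3 (0.959 to 0.971). For Tfe3 they were Zfp719, Slc35a1, B630019K06Rik, Ttpa and Map3k2 (0.985 to 0.994). For Otx1 they were Srrm1, Dtx3, Cln3, Ncald and Clcn3 (0.931 to 0.976), and for Otx2 Rarres1, Cd93, Nudt16, Sh3tc2 and Cyfip2 (0.976 to 0.993). Foxf2 is a forkhead gene of periocular mesenchyme and Cln3 a lysosomal gene, and no melanin gene or other member was among the 30. For the dimmer Mitf probe set, looked up after its values were seen, they were Cdca2, Rnf227, Amer1, Ccdc59 and Zfp800 (0.997 to 0.998), all lower on replicate 1 (shifts of -1.90 to -0.61).

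Known MITF targets, mostly melanin and melanosome genes, lay lower in albino pools almost without exception, by small amounts. This list, called the melanin list here, also holds genes of other kinds, among them Cdk2, Met, Bcl2, Kit and Ednrb. It shares Kit, Ednrb and Mc1r with the melanoblast markers, so their counts are not separate. Of 20 tested members 19 were lower and 1, Cdk2 (0.043), was higher. The median difference was -0.15, where 35.2% of all 12098 tested genes were lower and their median was 0.043. With limma 0 passed the adjusted threshold with or without the replicate block, and 1 had an unadjusted p under 0.05 (7 with the block). Of all 12098 genes 579 had such a p, and 2043 with the block. The genotypes did not overlap at 4 of the 20, all lower in albino pools, where over all 12098 genes 409 were lower and 964 higher without overlap. The RPE markers, which share members with this list, were lower at 13 of 14, among them Kcnj13 and Trpm3, which are not melanin genes, and no difference between the lists was tested. The count of 19 was also 19 without both replicate 1 arrays and 20 after median centring, and it was 13 without pigmented replicate 1 (median -0.042), the lowest over the arrays left out singly. The median of all tested probe sets moved as well, from 0.047 to -0.027 after median centring and to 0.082 without pigmented replicate 1. The refits of the lists below share such shifts, and the share of all genes lower was not counted in the refits. Ednrb, the endothelin receptor of melanoblasts, read 8.36, 8.24 and 8.14 against 8.67, 8.44 and 8.50 and did not overlap between genotypes (difference -0.29, SE 0.11). Its 2 other tested probe sets gave -0.25 and -0.053. Oca2, a melanosomal transporter gene, read 9.31, 9.11 and 9.23 against 9.56, 9.46 and 9.36, and its groups were also apart (-0.24, SE 0.10). Mlana, a melanosome biogenesis gene, differed by -0.26 (SE 0.11).

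The melanin enzyme genes with the M-box letters printed above overlapped between genotypes. Tyr, the gene of the enzyme that starts melanin synthesis, differed by -0.19 (SE 0.13), Tyrp1 by -0.24 (SE 0.18) and Dct by -0.077 (SE 0.11). The 2 other tested probe sets of Tyr gave -0.37 and -0.06, and those of Tyrp1 gave -0.31 and -0.077. Pmel, the gene of the melanosome fibril protein, differed by -0.087 (SE 0.13). Beside these, the brighter Mitf probe set differed by -0.10, the dimmer one by 0.11 and their average by 0.0083. In the promoter windows of this list 8 of 17 genes with a window held the M-box core (45% of windows, against 14.2% of all). They were Dct, Mc1r, Oca2, Slc24a5, Slc7a11, Trpm1, Tyr and Tyrp1. CACGTG and TAATCC each stood in 20% of the windows, against 7.15% and 7.06% of all. The list was made of known MITF targets, so its M-box share could be foreseen and is no test. The albino pools also had the higher skeletal muscle markers, by 1.48 on average, and the part of muscle in these lower values was not tested.

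Genes that depend on OTX factors in RPE or retina were few and overlapped with the melanin list through Tyr, Tyrp1 and Dct. Of 7 genes 5 were tested, and all 5 were lower in albino pools (median -0.19), where 35.2% of all tested genes were lower. The count was 4 without pigmented replicate 1 (median -0.078), without albino replicate 2 (-0.12) and without both replicate 1 arrays (-0.165). 1 had an unadjusted p under 0.05, and 2 had with the replicate block. Of all 12098 genes 579 had such a p, and 2043 with the block. Ttr, the gene of transthyretin, a secreted carrier of thyroid hormone and retinol, read 11.79, 11.64 and 11.65 in albino pools, against 12.44, 12.24 and 12.07 in pigmented ones. The groups were apart (difference -0.56, SE 0.12, limma adjusted p = 0.644), and its other 3 tested probe sets gave -0.64 to -0.43. Best1, an RPE chloride channel gene, differed by -0.073 (SE 0.22). Crx and Rbp3 were below the filter. Of the 6 genes with a promoter window, 5 held the OTX-type letters (83.3% of windows, against 7.06% of all): Best1, Crx, Dct, Rbp3 and Tyrp1. The M-box core stood in 66.7% of these windows, against 14.2% of all. The list was made of known OTX-dependent genes, so its share of OTX-type letters could be foreseen and is no test.

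A list of transcription factors and some other genes that act with or against Mitf and Otx2 in the optic cup had 19 tested members. Of these 13 were lower and 5 higher in albino pools (median -0.067), where 35.2% of all tested genes were lower. The counts include Ctnnb1, Yap1 and Wwtr1, genes of co-activators, and Gas1, the gene of a surface protein. Gas1 (0.057) and Yap1 (0.05) were among the higher and Ctnnb1 (-0.013) among the lower. The list shares Rax, Six3, Six6, Sox2 and Crx with the neural retina markers, so their counts are not separate. The median was -0.12 without albino replicate 1, -0.10 without albino replicate 3, -0.11 without both replicate 1 arrays, -0.14 after median centring and -0.013 among genes with a mean of at least 7. With limma 0 passed the adjusted threshold with or without the replicate block. 1 had an unadjusted p under 0.05, as did 579 of all 12098 genes. With the block 8 had, as did 2043 of all genes. Lef1, the Wnt effector, read 8.87, 8.86 and 8.94 in albino pools, against 9.05, 9.40 and 9.22 in pigmented ones, with the groups apart (difference -0.33, SE 0.11), though its other probe set gave -0.0033. Rax and Six6, factors of retinal progenitors, differed by -0.26 (SE 0.13, 0.06 with the block) and -0.52 (SE 0.29, 0.15 with the block). Pax6, which is used on both sides of the RPE and retina decision, read 10.01, 9.75 and 9.65 against 9.91, 9.72 and 9.82 and differed by -0.013 (SE 0.12). Sox10 differed by -0.09 (SE 0.15). Vsx1 and Gsc were below the filter.

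Lysosome and autophagy genes known as TFEB and TFE3 targets showed no common direction that held from array to array. Of 37 tested members 23 were higher and 13 lower in albino pools (35.1% lower, against 35.2% of all genes). Their median of 0.04 lay beside the median of all genes (0.043). The count of 13 lower was 28 without albino replicate 1, 8 without albino replicate 2, 7 without albino replicate 3, 6 without pigmented replicate 1 and 22 without pigmented replicate 2 or 3. It was 26 after median centring and 11 without both replicate 1 arrays. The median of all tested probe sets, 0.047 in the main fit, moved with these settings too. It was -0.0017, 0.065 and 0.063 without albino replicates 1, 2 and 3. Without pigmented replicates 1, 2 and 3 it was 0.082, 0.022 and 0.028, and after median centring it was -0.027. 0 passed the adjusted threshold, and 2 had an unadjusted p under 0.05 (5 with the block). Of all 12098 genes 579 had such a p, and 2043 with the block. Scpep1, a serine carboxypeptidase gene, read 9.29, 9.68 and 9.69 against 9.87, 10.10 and 9.97, with the groups apart (difference -0.43, SE 0.14), and its other probe set gave -0.12. Neu1, the lysosomal sialidase gene, was higher in albino pools without overlap (0.25, SE 0.10), and Ctsf, a cathepsin gene, differed by 0.23 (SE 0.12). Lamp1, the lysosomal membrane gene whose window holds 4 E-boxes, read 11.35, 10.99 and 11.01 against 11.28, 10.86 and 10.99 and differed by 0.073 (SE 0.16), with replicate 1 highest in each genotype. CACGTG stood in the windows of 13 of 32 genes of this list (37.1% of windows, against 7.15% of all). CATGTG stood in 20% of the windows, against 14.2% of all. The list was made of known TFEB and TFE3 targets, so its E-box share could be foreseen and is no test.

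Genes that hold the MITF-TFE proteins in the cytoplasm or release them, through the Rag GTPases, folliculin and mTORC1, had 10 of 19 tested members higher and 9 lower (median 0.013). 0 passed the adjusted threshold, and 1 had an unadjusted p under 0.05 (2 with the block). Of all 12098 genes 579 had such a p (2043 with the block), and 35.2% were lower, against 47.4% of this list. No direction held from array to array. The count of 9 was 5 without albino replicate 2, albino replicate 3 or pigmented replicate 1 (medians 0.043 to 0.085). It was 13 without albino replicate 1 (median -0.08) or pigmented replicate 2 (-0.04), 12 without pigmented replicate 3 (-0.013), 10 without both replicate 1 arrays (-0.015) and 13 after median centring (-0.06). The median of all tested probe sets moved with the same settings, as given for the lysosome list. Rragd, a Rag GTPase gene that is itself an MITF-TFE target, read 9.17, 9.26 and 9.31 against 9.26, 9.40 and 9.29 and differed by -0.07 (SE 0.092). Flcn, the folliculin gene, differed by -0.073 (SE 0.097), while the second probe set of Flcn gave 0.18. Lamtor5, a subunit of the lysosomal Ragulator complex, read 10.58, 10.51 and 10.56 against 10.88, 10.84 and 10.70, with the groups apart (difference -0.26, SE 0.091), but its other probe set gave 0.053. Fnip2, a folliculin partner gene, differed by -0.15 (SE 0.092), and Lamtor2 by 0.12 (SE 0.087).

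**Figure D4:**
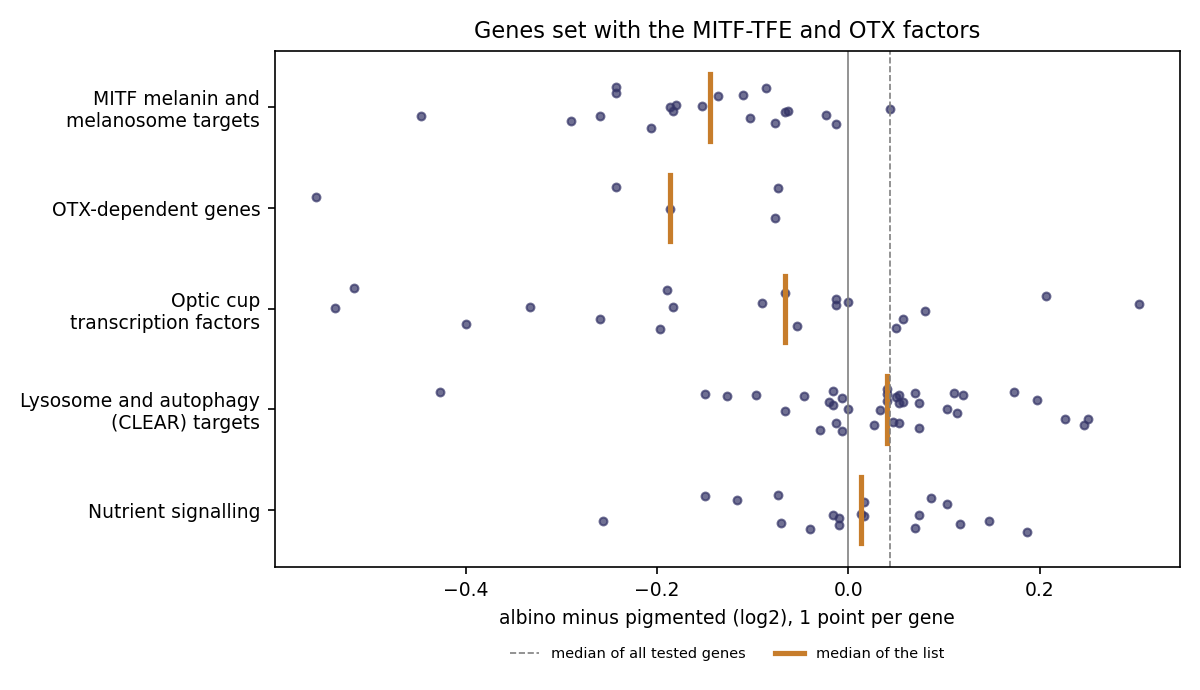
Albino minus pigmented differences in log2 units of the tested genes of 5 lists set with the MITF-TFE and OTX factors, 1 point per gene, with the list median in orange and the median of all tested genes as a dashed line. The melanin list of MITF targets has 19 of 20 points below 0 and the OTX-dependent list 5 of 5, while the lysosome list straddles 0 with a median of 0.04.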

How the data were processed

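Tissue of 6 pools was measured on Affymetrix arrays from 100 ng of total RNA, labelled with a 3' IVT kit per the labels. The deposited log2 values were made by the authors with Affymetrix Expression Console 1.1 and RMA, per the submitters' processing notes. Whether they were processed as 1 batch of arrays is not stated in the notes used. Genes were named through the platform annotation by symbol and Entrez ID, and a gene was represented by its brightest single-gene probe set. Control probe sets (64) and those with a mean below 5 were left out. Albino minus pigmented was fitted with limma 3.58.1 in R 4.3.3 (lmFit, eBayes, two-sided, Benjamini-Hochberg over 23591 probe sets, threshold 0.05), tested beforehand on simulated data. SE and confidence intervals come from that fit. The number of arrays limits the precision.

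The members and lists were chosen with earlier results of these data known. By rule the text names the 6 members, their 5 nearest genes, the 3 members of each list with the smallest p, and Tyr, Tyrp1, Dct, Pmel, Pax6, Sox10, Kit, Lamp1, Ttr, Rragd and Flcn. A further gene the rule named is not reported here. Best1, Kcnj13, Trpm3, Serpinf1, Cryba1, Cryaa, Erbb3, Mcoln3, Foxd3, Pax3, Six3, Sox2 and genes below the filter were named after their values were seen. So were Cdk2, Met, Bcl2, Gas1, Yap1, Ctnnb1 and Wwtr1. Deviations from the genotype means correlated between arrays of the same number at 0.863, 0.687 and 0.448. Because each was above 0.1, numbers were treated as pairs in the replicate block and in differences between arrays of the same number. The main fit has no replicate term, so its SE, confidence intervals and p-values do not use the pairs. Unlike numbers correlated as well for albino 2 with pigmented 3 (0.693) and albino 3 with pigmented 2 (0.546), so the values set only replicate 1 apart. The labels do not say what a number shares. Alternatives were the replicate block, leaving out arrays, other scaling, other filters, averaged probe sets, array weights, a Y-linked covariate and other eBayes settings.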

Additional observations from a re-analysis of the deposited data

How the results depend on the processing

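None of the 115 refitted member values passed the adjusted threshold (smallest adjusted p = 0.321), and 99 kept their sign. The sign turned for Mitf when its probe sets were averaged (0.0083), for Tfec after median centring (-0.017) and with the Y-linked covariate (-0.016), and for Tfe3 after median centring (-0.06), after cyclic loess (-0.048) and with that covariate (-0.024). With that covariate Otx1 gave 0.13, Otx2 gave 0.092, Mitf 1422025_at gave 0.71 and Tfeb gave -0.18. Median centring moved Mitf 1455214_at to -0.17, Mitf 1422025_at to 0.04, Tfeb and Otx2 to -0.16 and Otx1 to -0.12. Cyclic loess gave 0.05 for Mitf 1422025_at and -0.095 for Otx1. Array weights gave 0.053 for Mitf 1422025_at, -0.01 for Tfeb, 0.053 for Tfe3, -0.19 for Otx1 and -0.18 for Otx2. Leaving out single arrays gave -0.12 to -0.077 for Mitf 1455214_at, -0.38 to 0.515 for Mitf 1422025_at, -0.05 to 0.165 for Tfec, -0.16 to -0.03 for Tfeb, -0.038 to 0.072 for Tfe3, -0.17 to 0.052 for Otx1 and -0.24 to 0.01 for Otx2. The causes were not tested. No member's call changed with the replicate block. The 1104 probe sets at an unadjusted p under 0.05 became 4243 with the replicate block, 4952 with a block that sets replicate 1 apart (an alternative chosen after seeing the data), 3052 without both replicate 1 arrays, 3510 with array weights, 687 with the Y-linked covariate, 598 among probe sets with a mean of at least 7, where fewer were tested, and 567 to 1418 without single arrays. The count at an adjusted p under 0.05 was 0 in each of these.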
